A study of Homo sapiens with 6 samples.

Results

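Laminin chain genes were described in HGC27 cells, an established human gastric cancer cell line, as the 9 genes *LAMA1*, *LAMA2*, *LAMA3*, *LAMA4*, *LAMA5*, *LAMB1*, *LAMB2*, *LAMB3* and *LAMC1* among the 39739 gene rows of the RNA-seq tables. Members were chosen by gene symbol, and all 9 were found. The 3 HGC27-FN1 3′-UTR libraries came from cells that stably carried the *FN1* 3′-UTR after lentiviral infection, and the 3 HGC27-control libraries came from cells labelled as controls. Overexpressing cells had been selected with puromycin, and the sources used here do not say what the control cells carried. All libraries thus come from 1 cell line, and since nothing says that replicates were separate cultures, p-values measure only the spread between these libraries, which may be technical. Of the chain genes outside the 9, *LAMB4* and *LAMC3* are given where a class or trimer needs them.

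Laminins are secreted glycoproteins built from 1 α, 1 β and 1 γ chain that join through a coiled coil. They polymerise into a sheet at the base of epithelia and around muscle, nerve and vessels, where nidogens and heparan sulfate proteoglycans tie the sheet to collagen IV. The α chain carries the globular domains that bind integrins and dystroglycan, and trimers are named by their chain numbers, so that laminin-511 is α5β1γ1.

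Expression was deposited as RPKM, read counts scaled by the merged exon length of each gene and by the reads assigned in each library. Merged lengths of the α chain genes ran from 10094 bases (*LAMA2*) to 15872 bases (*LAMA1*) and can exceed the transcripts present. Orders, sums and shares across genes therefore hold on this scale only. The libraries held between 16357085 and 37037532 reads assigned to genes, and *FN1* was at 0.780 ± 0.0371 RPKM in HGC27-FN1 3′-UTR libraries and 0.516 ± 0.0370 RPKM in HGC27-control libraries (SD, n = 3 each, log2 fold change 0.52, limma adjusted p = 0.0292). This *FN1* row covers the whole gene and does not separate the 3′-UTR. Of the cell type markers listed, the 5 epithelial markers were summed at 18.2 to 27.0 RPKM in HGC27-FN1 3′-UTR libraries and at 2.59 to 2.99 RPKM in HGC27-control libraries, and all 5 were higher by limma. Most of each sum was *KRT8*, at 10.8 to 14.6 and 2.02 to 2.29 RPKM. *KRT19* lay under 0.1 RPKM in every control library, so it could be tested only by being high in HGC27-FN1 3′-UTR libraries. The 3 mesenchymal markers were summed at 305 to 330 and 301 to 339 RPKM, nearly all of it *VIM*. The 3 fibroblast markers were summed at 13.1 to 15.2 and 7.02 to 9.14 RPKM, with 1 of the 3 (*LUM*) called higher, whereas the 3 endothelial markers summed to at most 0.0143 RPKM in any library, with *PECAM1* at 0 in all 6. Of 3 blood markers, 1 was analysed here (*PTPRC*, at most 0.0164 RPKM). Fewer cells of a type and less RNA per cell cannot be told apart in such bulk libraries. Whether any of these markers bears on the laminin values was not tested.

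Of the 9 laminin chain genes, 2 were higher (*LAMB3* and *LAMC1*), 3 were lower (*LAMA1*, *LAMA2* and *LAMA3*) and 4 did not pass at an adjusted p under 0.05 in HGC27-FN1 3′-UTR cells. The test was limma on log2(RPKM + 0.1) over 23299 genes, two-sided, with Benjamini-Hochberg adjustment, and on this scale a change at low RPKM appears smaller than it is. Of all tested genes, 5.62% were called higher and 7.36% lower, which makes 13% in either direction. Only *LAMB3* passed the paper's criteria for DEGs, which ask for a log2 fold change past 1 in size with P under 0.05 before adjustment and at which 1.65% of all tested genes were upregulated and 0.815% were downregulated. The 3 libraries of one group lay wholly above those of the other for 8 of the 9 genes, all but *LAMB1*, where 36% of all tested genes had groups that did not overlap. *LAMA4* and *LAMB3* reached the minimum of 0.1 RPKM in the 3 HGC27-FN1 3′-UTR libraries alone, so they could enter the test only by being high there. With RPKM rescaled by median ratios, 4 of the 9 were higher and 2 were lower, where 1696 and 1330 of 23294 tested genes were. Of all calls, 56.0% were then higher instead of 43.3%. When limma's voom was run on the reads recovered from RPKM, 5 were higher and 3 were lower, where 8.77% and 13.2% of all tested genes were called.

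**Figure D1:**
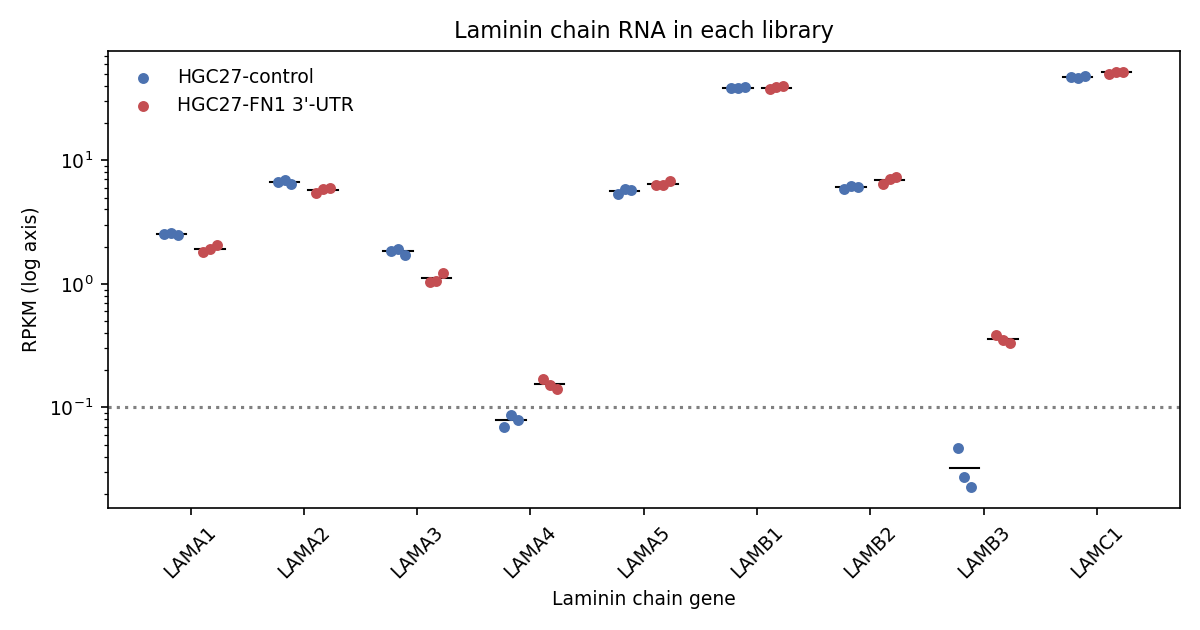
RPKM of each laminin chain gene in every library, on a log axis, with 3 points for each group and a black line at their mean. The dotted line is the minimum of 0.1 RPKM. *LAMC1* and *LAMB1* lie far above the other chains, and *LAMB3* and *LAMA4* lie below 0.1 RPKM in HGC27-control libraries alone.

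*LAMC1* encodes γ1, the γ chain of most trimers, and was the most abundant chain. It lies at 183023460 to 183145592 of chromosome 1 (forward strand) in GRCh38, the build of all positions here. Its levels were 49.8, 52.2 and 52.3 RPKM in HGC27-FN1 3′-UTR replicates 1 to 3 and 46.9, 46.6 and 47.9 RPKM in HGC27-control replicates 1 to 3. The 2 ranges did not overlap, although the mean rose by only 9.17%. The log2 fold change was 0.13 (standard error, SE, 0.03, limma adjusted p = 0.0464). The call was lost in each of the 6 fits that left out 1 library, where the adjusted p from limma lay between 0.0583 and 0.152, and also without a filter on low RPKM (0.0659) or without the variance trend (0.146).

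*LAMB1*, at 107923799 to 108003255 of chromosome 7 (reverse strand), encodes β1 and was the next most abundant chain. HGC27-FN1 3′-UTR libraries had 38.0, 38.9 and 39.6 RPKM, and HGC27-control libraries had 38.7, 38.4 and 38.9 RPKM. These values overlapped. The log2 fold change was 0.01, with a 95% confidence interval of -0.06 to 0.07 (limma adjusted p = 0.919), which was the narrowest interval of the 9 genes.

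*LAMB2* encodes β2, known from neuromuscular synapses and the glomerular filter, and lies at 49121114 to 49133118 of chromosome 3 (reverse strand). Its levels were 6.49, 7.11 and 7.33 RPKM in HGC27-FN1 3′-UTR libraries and 5.88, 6.25 and 6.03 RPKM in HGC27-control libraries. Every library of the first group lay above every library of the second, but the log2 fold change of 0.20 did not pass the test (SE 0.06, limma adjusted p = 0.0677). It passed by voom (0.21, adjusted p = 0.00503) and with median-ratio scaling (0.23, limma adjusted p = 0.0402).

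*LAMB3* encodes β3, a chain of the laminins of skin and glandular epithelia, and lies at 209614870 to 209652466 of chromosome 1 (reverse strand). It had 0.386, 0.353 and 0.332 RPKM in HGC27-FN1 3′-UTR libraries, from 30, 41 and 46 reads. HGC27-control libraries had 0.0471, 0.0273 and 0.0227 RPKM, from 5, 4 and 4 reads. The groups were far apart, and the ratio of mean RPKM was 11. Epithelial markers were higher too, 5 of 5, with summed levels of 18.2 to 27.0 against 2.59 to 2.99 RPKM, most of it *KRT8*. Of these markers, *KRT19* could, like *LAMB3*, enter the test only by being high in HGC27-FN1 3′-UTR libraries. *LAMA3*, like *LAMB3* a chain of epithelial basement membranes, was lower. The part of these markers in either result was not tested. *LAMB3* thus rose from the lowest level of the 9 genes to the next to lowest, with a log2 fold change of 1.79 (SE 0.19, limma adjusted p = 0.00449). On the recovered reads, voom gave a log2 fold change of 3.44 (95% confidence interval 2.66 to 4.22, adjusted p = 7.93e-07). A pseudocount of 1 gave 0.39.

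*LAMA2* and *LAMA5* were the most abundant α chains, and their order in RPKM differed between the groups. *LAMA2*, at 128883141 to 129516569 of chromosome 6 (forward strand), encodes α2 of muscle and peripheral nerve. It had 5.49, 5.86 and 5.94 RPKM in HGC27-FN1 3′-UTR libraries and 6.65, 6.92 and 6.48 RPKM in HGC27-control libraries. *LAMA5*, at 62307955 to 62367312 of chromosome 20 (reverse strand), encodes α5, the widespread α chain of adult epithelia and vessels. It had 6.34, 6.29 and 6.75 RPKM in HGC27-FN1 3′-UTR libraries and 5.38, 5.84 and 5.72 RPKM in HGC27-control libraries. In RPKM, *LAMA5* was therefore above *LAMA2* in all 3 HGC27-FN1 3′-UTR libraries and below it in all 3 HGC27-control libraries. Before division by length, HGC27-control libraries had 1724, 2586 and 3040 reads of *LAMA5* and 1500, 2154 and 2423 of *LAMA2*. The order in controls thus depends on the merged exon lengths, 14361 bases for *LAMA5* and 10094 for *LAMA2*.

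The log2 fold change of *LAMA2* was -0.21 (SE 0.05, limma adjusted p = 0.0389), and its mean fell by 13.8%. The call was lost in all 6 fits that left out 1 library, with adjusted p from limma between 0.0662 and 0.130, and also with median-ratio scaling (adjusted p = 0.0661), without a filter on low RPKM (0.0531) and without the variance trend (0.0757). The log2 fold change of *LAMA5* was 0.19 (SE 0.05), which did not pass (limma adjusted p = 0.0584). It passed with median-ratio scaling (0.23, adjusted p = 0.0257 from limma) and with voom (0.19, adjusted p = 0.00289).

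*LAMA1* encodes α1, the chain of early embryonic basement membranes, and lies at 6941744 to 7117814 of chromosome 18 (reverse strand). It had 1.83, 1.90 and 2.06 RPKM in HGC27-FN1 3′-UTR libraries and 2.52, 2.58 and 2.47 RPKM in HGC27-control libraries. The groups did not overlap, and the mean fell by 23.4%. Its log2 fold change was -0.37 (SE 0.07, limma adjusted p = 0.0188). The call was kept without HGC27-FN1 3′-UTR replicate 3 (limma adjusted p = 0.0322), and leaving out any 1 of the other 5 libraries lost it, with adjusted p between 0.0521 and 0.0774.

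*LAMA3* encodes α3, an α chain of epithelial basement membranes, and lies at 23689443 to 23955066 of chromosome 18 (forward strand). It had 1.04, 1.05 and 1.23 RPKM in HGC27-FN1 3′-UTR libraries and 1.86, 1.93 and 1.70 RPKM in HGC27-control libraries. The mean fell by 39.4%, the most of the 3 genes called lower, and the groups lay well apart. Its log2 fold change was -0.68 (SE 0.09, limma adjusted p = 0.00947). It was called lower in all 6 fits that left out 1 library, with log2 fold changes between -0.75 and -0.64. The row merges the exons of its long and short transcripts, which start at different promoters, so the values do not say which of them changed.

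*LAMA4* encodes α4 of vessels and other mesenchymal basement membranes, and lies at 112108760 to 112254939 of chromosome 6 (reverse strand). It had 0.169, 0.152 and 0.142 RPKM in HGC27-FN1 3′-UTR libraries, from 32, 43 and 48 reads, and 0.0696, 0.0869 and 0.0793 RPKM in HGC27-control libraries, from 18, 31 and 34 reads. The groups did not overlap and the ratio of mean RPKM was 1.96. The log2 fold change of 0.51 (SE 0.20) did not pass (limma adjusted p = 0.152). Every control value lies under the pseudocount of 0.1. On the recovered reads it passed, at 0.93 on the log2 scale (voom adjusted p = 0.00217).

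**Figure D2:**
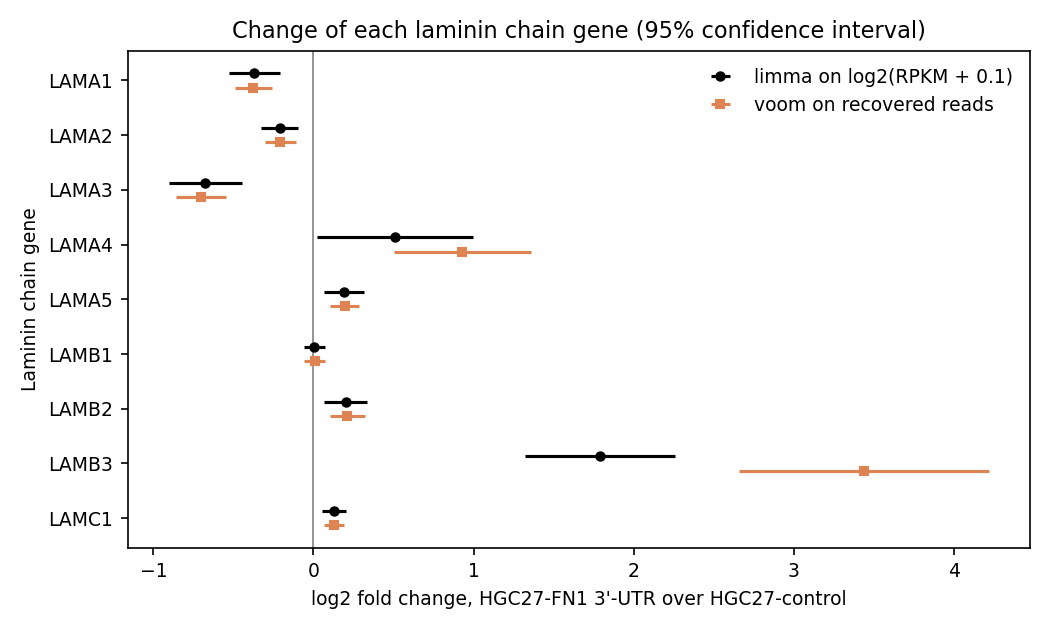
Log2 fold change of each laminin chain gene, HGC27-FN1 3′-UTR over HGC27-control, with its 95% confidence interval, from limma on log2(RPKM + 0.1) in black and from voom on the recovered reads in orange. The estimates differ most for *LAMB3* (1.79 and 3.44) and *LAMA4* (0.51 and 0.93), whose control levels lie below the pseudocount.

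Of the chain genes outside the 9, *LAMB4* had 1 read summed over the HGC27-FN1 3′-UTR group and 10 over the controls, and *LAMC3* had 1 and 0, so neither was tested. Both were near the limit of 3 reads per library, between 0.0107 and 0.0261 RPKM, which covers counting error only.

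Ordered by mean RPKM, the 9 genes ran *LAMC1*, *LAMB1*, *LAMA2*, *LAMB2*, *LAMA5*, *LAMA1*, *LAMA3*, *LAMA4* and *LAMB3* in HGC27-control libraries, where no neighbours in the order had overlapping ranges. In HGC27-FN1 3′-UTR libraries *LAMB2* and *LAMA5* stood before *LAMA2*, and *LAMB3* before *LAMA4*. There the ranges of *LAMB2* and *LAMA5* overlapped, and those of all other neighbours did not.

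Summed by class, the α chains had less RNA than the β chains, and less than *LAMC1* alone, in every library. The 5 α chains summed to 15.4 ± 0.645 RPKM in HGC27-FN1 3′-UTR cells against 16.8 ± 0.519 RPKM in HGC27-control cells (SD, n = 3 each). The 4 β chains summed to 46.2 ± 1.23 and 44.8 ± 0.172 RPKM (SD, n = 3 each). *LAMC1*, which encodes γ1, was at 51.4 ± 1.44 and 47.1 ± 0.698 RPKM (SD, n = 3 each). Its level was 3.34 ± 0.0901 times the α sum in HGC27-FN1 3′-UTR cells and 2.81 ± 0.119 times in HGC27-control cells (SD, n = 3 each). The 2 groups did not overlap in this ratio. The two-sided exact permutation test gave p = 0.1, which is the smallest that 3 libraries against 3 allow (adjusted p = 0.12 over 6 such sums and ratios).

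Within the α class, the share of *LAMA5* was 42.6%, 41.2% and 41.8% of the summed α RPKM in HGC27-FN1 3′-UTR libraries and 32.6%, 33.7% and 34.8% in HGC27-control libraries, a difference of 8.22 percentage points. The share of *LAMA3* was 7.03%, 6.89% and 7.63% against 11.3%, 11.1% and 10.3%. *LAMA1* made up 12.5 ± 0.257% and 15.1 ± 0.217%, and *LAMA2* 37.4 ± 0.878% and 39.9 ± 0.489% (SD, n = 3 each). *LAMA5* was thus the α chain whose share differed most, and *LAMA1*, *LAMA2* and *LAMA3* all had lower shares. *LAMA4* made up 1.005 ± 0.128% and 0.468 ± 0.0408% (SD, n = 3 each). In the β class, *LAMB1* made up 84.1 ± 0.472% in HGC27-FN1 3′-UTR cells and 86.4 ± 0.388% in HGC27-control cells, and *LAMB3* 0.775 ± 0.0805% and 0.0725 ± 0.0292% (SD, n = 3 each). The groups did not overlap in the share of any of these 8 α and β chain genes, each with p = 0.1 from the two-sided exact permutation test (adjusted p = 0.1 over 9 shares, that of *LAMB4* included), so none could pass. Shares within a class depend on one another, so these are not 8 separate results.

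**Figure D3:**
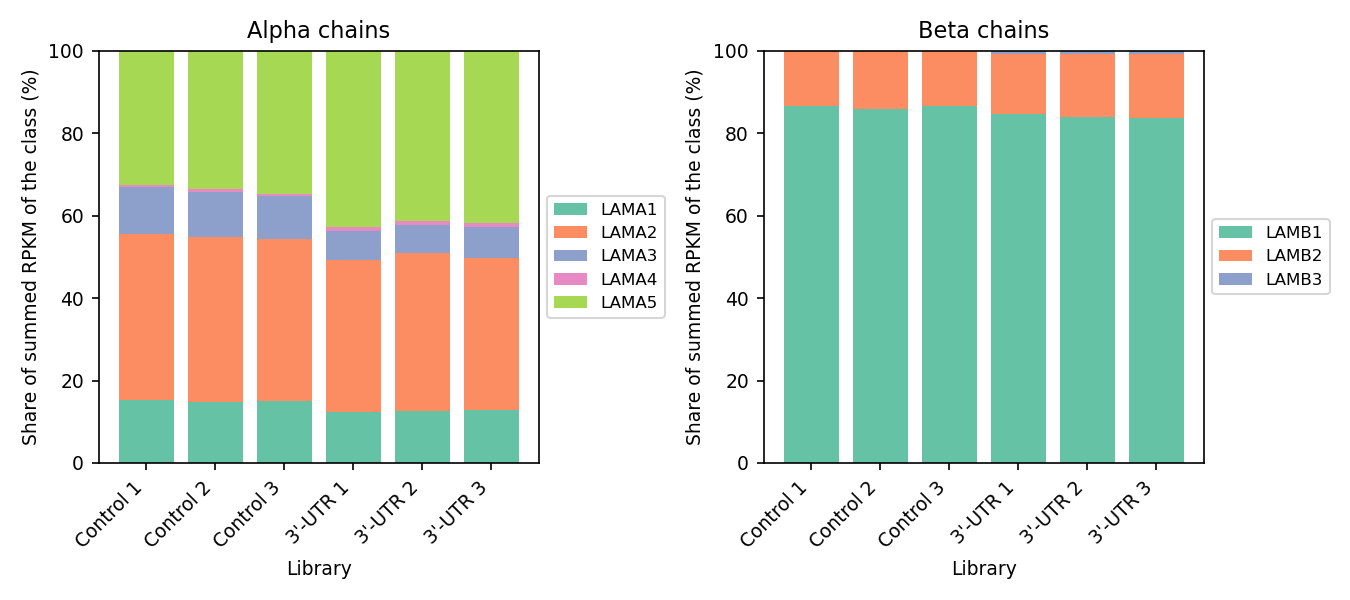
Share of each α chain (left) and β chain (right) in the summed RPKM of its class, in percent, for the 3 HGC27-control and 3 HGC27-FN1 3′-UTR libraries. *LAMA5* takes the largest α share in each HGC27-FN1 3′-UTR library and *LAMA2* in each HGC27-control library, and *LAMB3* stays under 1% of the β sum.

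Ratios between chains within a library, before a pseudocount is added, do not depend on the scaling of that library. On log2(RPKM + 0.1), *LAMA3* relative to *LAMA5* was -2.44 ± 0.07 in HGC27-FN1 3′-UTR cells and -1.58 ± 0.11 in HGC27-control cells (SD, n = 3 each), a difference of -0.87. *LAMA1* relative to *LAMA5* differed by -0.56. *LAMB1* relative to *LAMB2* differed by -0.19, and *LAMC1* relative to *LAMB1* by 0.12. The ratio of *LAMA3* to *LAMB3* was 2.70 to 3.71 in HGC27-FN1 3′-UTR libraries and 39.5 to 74.6 in HGC27-control libraries. All 7 pairs compared had groups that did not overlap, each with p = 0.1 from the two-sided exact permutation test (adjusted p = 0.1 over the 7 pairs). The pairs reuse the same genes, of which all but *LAMB1* had groups apart on their own. This count thus largely restates those separations, and no share over pairs of other genes was computed. *LAMB3* relative to *LAMB1* differed by 1.78, by 3.53 with no pseudocount and by 0.39 with a pseudocount of 1. *LAMA4* relative to *LAMA5* differed by 0.32, by 0.78 with no pseudocount and by -0.07 with a pseudocount of 1.

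For each of 13 trimers, the RPKM of its lowest chain was taken as a description of which chain was scarcest at the RNA level. RNA does not measure assembly, secretion or protein. The α chain was the lowest in all 6 libraries for 9 of the 13 trimers. Laminin-511 and laminin-521 had the same lowest level, that of *LAMA5*, 6.46 ± 0.251 RPKM in HGC27-FN1 3′-UTR cells against 5.64 ± 0.242 RPKM in HGC27-control cells (SD, n = 3 each). Laminin-211 was held at *LAMA2*, 5.76 ± 0.242 and 6.69 ± 0.223 RPKM. For laminin-221 the lowest chain was *LAMA2* in HGC27-FN1 3′-UTR libraries and *LAMB2* in HGC27-control libraries, and the groups overlapped. In RPKM, the highest of these lowest levels thus belonged to the α5 trimers in HGC27-FN1 3′-UTR cells and to laminin-211 in HGC27-control cells. The order in controls depends on the merged exon lengths.

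Laminin-311 and laminin-321, in which *LAMA3* was the lowest, had 1.11 ± 0.106 RPKM in HGC27-FN1 3′-UTR cells against 1.83 ± 0.119 RPKM in HGC27-control cells (SD, n = 3 each). Laminin-111 and laminin-121 were held at *LAMA1*, 1.93 ± 0.121 and 2.52 ± 0.0515 RPKM. Laminin-411 and laminin-421 were held at *LAMA4*, 0.154 ± 0.0136 and 0.0786 ± 0.00866 RPKM. Laminin-111, laminin-121, laminin-311 and laminin-321 thus had lower values in HGC27-FN1 3′-UTR cells. Laminin-411 and laminin-421 had higher ones. Trimers with β3 are not given here. The 3 trimers with γ3 had no more than 1 read of *LAMC3* in any library.

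**Figure D4:**
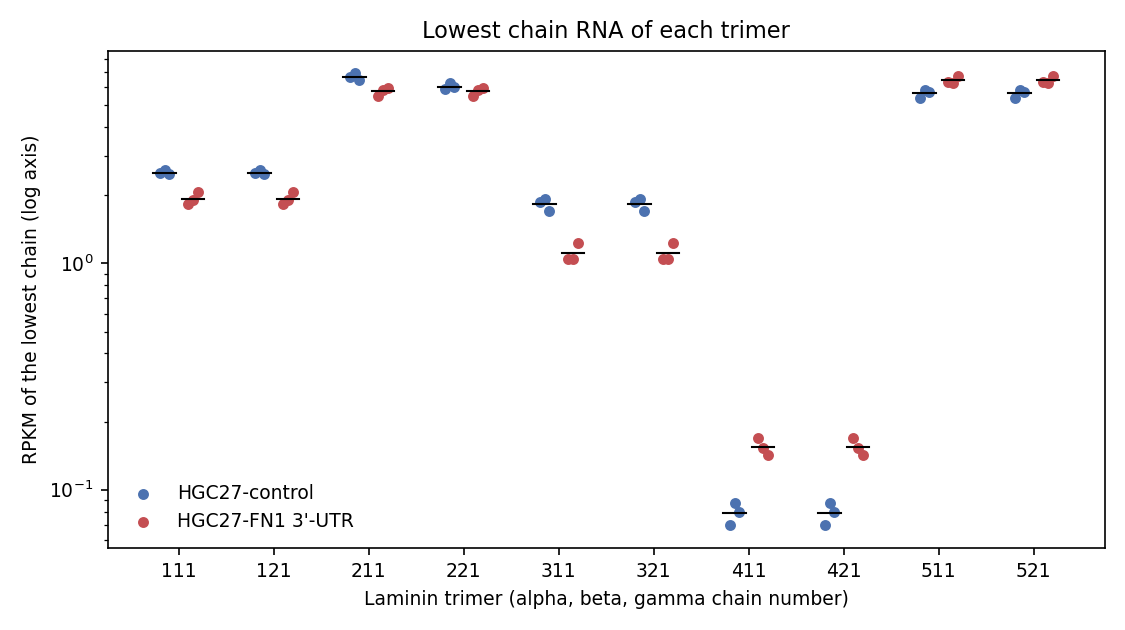
RPKM of the lowest chain of each of these trimers, those with γ3 left out, on a log axis, for each library, with a black line at the group mean. Trimers are named by their α, β and γ chain numbers. The α5 trimers and the α4 trimers have higher values in HGC27-FN1 3′-UTR libraries, while trimers with α1, α2 or α3 and γ1 have lower values in HGC27-FN1 3′-UTR libraries, except laminin-221, where the groups overlap.

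The study asks whether the *FN1* 3′-UTR acts on other mRNAs by binding miRNAs they share, so the 3′-UTRs of the laminin chains were searched for the seed matches of 4 miRNAs it names. The network in the paper holds further miRNAs, which were not searched. The mature sequences are those of RefSeq (GRCh38.p14), with the seed, bases 2 to 8, in capitals, because the search used the reverse complement of these letters. The genes of let-7i-5p and miR-423-5p hold them on the forward strand, at 62603691 to 62603712 of chromosome 12 and 30117095 to 30117117 of chromosome 17. Those of miR-629-5p and miR-296-3p hold them on the reverse strand, at 70079427 to 70079447 of chromosome 15 and 58817626 to 58817647 of chromosome 20.
let-7i-5p: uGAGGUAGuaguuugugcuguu
miR-423-5p: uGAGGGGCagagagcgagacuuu
miR-629-5p: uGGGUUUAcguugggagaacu
miR-296-3p: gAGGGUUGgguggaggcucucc

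The 4 seeds differ, so these miRNAs share no seed, although let-7i-5p and miR-423-5p begin alike. The matches searched for on the transcript strand were CTACCTC for let-7i-5p, GCCCCTC for miR-423-5p, TAAACCC for miR-629-5p and CAACCCT for miR-296-3p. One transcript a gene of GENCODE release 29 was read. The 3′-UTRs of the 9 genes were 93 nucleotides (*LAMB2*) to 2802 nucleotides (*LAMC1*) long. None of these 9 held any of the 4 matches. Of the 18719 3′-UTRs of at least 7 nucleotides, among 19487 read, 8.16%, 13.1%, 6.14% and 7.36% held the respective matches. For the 401 nucleotides of *LAMB3*, 3′-UTRs of similar length held them in 2.42%, 8.76%, 2.52% and 2.47% of genes. For the 2802 nucleotides of *LAMC1* these shares were 13.8%, 19.8%, 11.8% and 13.2%. These letters are absent from the windows read, and shorter or imperfect sites were not searched.

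Genes that work with laminins were given as 6 lists of 45 genes, of which 34 were tested, 5 were higher and 1 was lower (median log2 fold change 0.06, against -0.04 for all 23299 tested genes). Beside these counts and those of each list below stand the shares over all tested genes, 5.62% called higher and 7.36% called lower. No list was tested as a set. Of 7 laminin-binding integrin genes, 1 was higher and 1 was lower. *ITGB1*, the β1 subunit shared by most laminin-binding integrins, had 51.0, 50.6 and 50.2 RPKM in HGC27-FN1 3′-UTR libraries and 42.7, 42.0 and 42.7 RPKM in HGC27-control libraries (log2 fold change 0.25, SE 0.02, limma adjusted p = 0.00308). *ITGA6*, the α6 subunit that pairs with β1 or β4, had 4.59, 4.79 and 5.15 RPKM against 5.85, 6.07 and 5.79 RPKM (log2 fold change -0.28, SE 0.05, limma adjusted p = 0.0226). Its call was kept without HGC27-FN1 3′-UTR replicate 3 and lost when any 1 of the other 5 libraries was left out (adjusted p 0.0554 to 0.0874). *ITGB4*, the β4 subunit of hemidesmosomes, had 0.252 ± 0.0328 and 0.144 ± 0.0385 RPKM (SD, n = 3 each). Its groups did not overlap, and it did not pass by limma (adjusted p = 0.143, unadjusted p = 0.0382) but passed by voom (log2 fold change 0.78, adjusted p = 0.0151). *ITGA3* and *ITGA1* did not pass by limma either (adjusted p = 0.108 and 0.237) and were higher by voom (adjusted p = 0.0459 and 0.0376).

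Of 7 other laminin receptor genes, 1 was higher. *SDC2*, a heparan sulfate proteoglycan of the cell surface, rose from 13.9 ± 0.244 to 18.5 ± 0.503 RPKM (SD, n = 3 each), with 0.41 as its log2 fold change (limma adjusted p = 0.00182). *DAG1*, which encodes dystroglycan, had a log2 fold change of 0.12 with a 95% confidence interval of -0.02 to 0.26 (limma adjusted p = 0.217). *SDC4* had overlapping groups and did not pass by limma (adjusted p = 0.104, unadjusted p = 0.0228) but was higher by voom (adjusted p = 0.0241).

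Of 15 genes of basement membrane partners, 10 were tested, 3 were higher and 0 were lower by limma at an adjusted p under 0.05, although 2 (*COL15A1* and *COL18A1*) were lower at an unadjusted p under 0.05 and by voom. *NID1*, which encodes the nidogen that binds γ1 and links it to collagen IV, had 0.657, 0.614 and 0.759 RPKM in HGC27-FN1 3′-UTR libraries and 0.382, 0.365 and 0.364 RPKM in HGC27-control libraries (log2 fold change 0.72, SE 0.12, limma adjusted p = 0.0172). *AGRN*, which encodes the proteoglycan agrin that binds the laminin coiled coil, rose from 7.16 ± 0.780 to 9.71 ± 0.394 RPKM, and *SPARC*, a collagen-binding matricellular protein, from 21.3 ± 1.57 to 38.5 ± 0.964 RPKM (SD, n = 3 each). Their log2 fold changes were 0.44 and 0.86 (adjusted p = 0.0226 and 9.10e-04 from limma). Leaving out 1 library kept the call of *SPARC* in 6 of 6 fits. The calls of *NID1* and *AGRN* were each kept in 2 of 6, and where lost the adjusted p from limma was 0.0540 to 0.0662 and 0.0531 to 0.0713. *COL4A1*, a main chain of collagen IV, was not tested, with 10 reads summed over the HGC27-FN1 3′-UTR group and 0 over the controls. HGC27-FN1 3′-UTR replicate 3 had 0 RPKM as well, so the groups overlapped. *COL4A5* was the one collagen IV gene tested, at 2.19 ± 0.108 and 2.11 ± 0.135 RPKM (limma adjusted p = 0.707). Of the 5 tested laminin processing proteases, 2 hemidesmosome genes and 3 netrins, 0 passed by limma, while *DST*, *PLEC* and *MMP2* were higher at an unadjusted p under 0.05 and by voom. The hemidesmosome gene *COL17A1* had 20 and 2 reads in the 2 groups and was not tested.

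**Figure D5:**
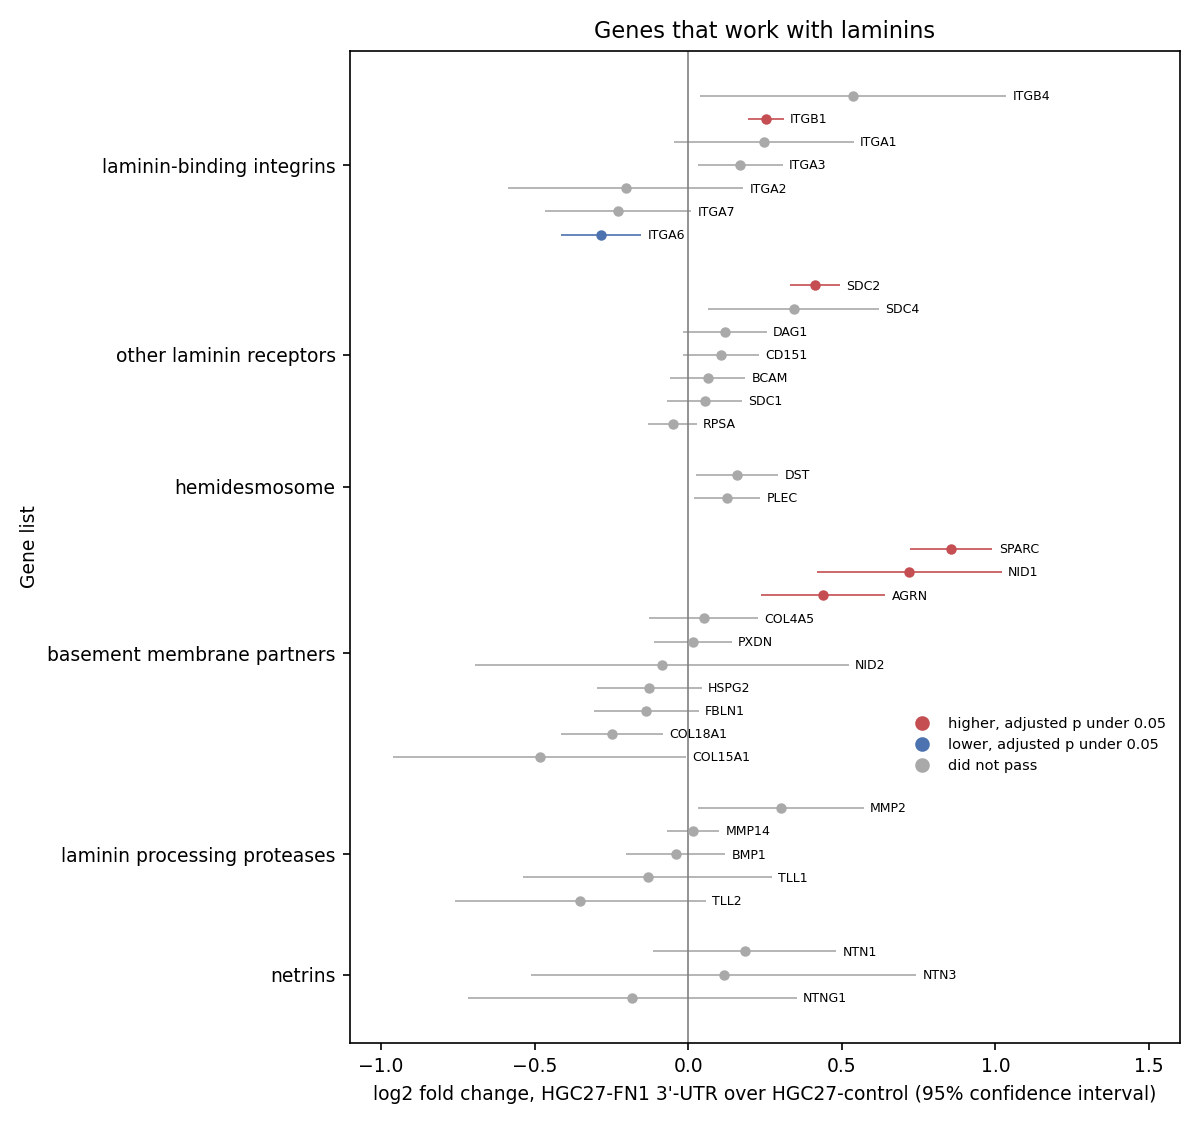
Log2 fold change of the 34 tested genes of the 6 lists, HGC27-FN1 3′-UTR over HGC27-control, with 95% confidence intervals from limma. Red marks the 5 genes called higher, blue the 1 called lower (*ITGA6*) and grey the 28 that did not pass.

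By the distance between centred log2(RPKM + 0.1) profiles over the 6 libraries, the genes most like *LAMB3* were *SPRY4* (0.21), *TGFB2* (0.23) and *COL12A1* (0.26), and those most like *LAMA3* were *FOXN4* (0.12), *ATP2B3* (0.13) and *QRICH2* (0.13). For *SPRY4*, the 3 controls held 7 reads in all. Its control mean was 0.0139 RPKM. Like *LAMB3*, it could thus reach 0.1 RPKM in 3 libraries only through the HGC27-FN1 3′-UTR group. The pseudocount of 0.1 shrinks such changes, so the distances to *LAMB3* hold on that scale only. Mean RPKM with the *FN1* 3′-UTR and in controls was 2.497 and 0.696 for *TGFB2*, and 6.347 and 1.597 for *COL12A1*. For *LAMB3* it was 0.357 and 0.0324. Exons of 5 of the 9 genes overlapped those of opposite-strand genes. The libraries were strand-specific, but the sources used here do not say whether strand was used in counting, so reads in the shared bases may belong to either gene. *LAMA5* shared 244 bases with *ADRM1* (59.2 RPKM with the *FN1* 3′-UTR, 65.4 RPKM in controls), and *LAMB1* shared 70 bases with *DLD* (28.4 and 28.7 RPKM). *LAMA2* shared 148 bases with *RP1-69D17.3*, which was itself lower (log2 fold change -0.36, limma adjusted p = 0.0210), and *LAMB1* also overlapped *CTB-13F3.1*, which was higher (0.67, limma adjusted p = 0.0329). *LAMA1* shared 1641 bases of its 15872 with the antisense gene *RP11-781P6.1*, which had 142 reads in all libraries. *LAMB2*, *LAMB3*, *LAMA3* and *LAMC1* shared no exon bases with another row.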

How the data were processed

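RNA-seq of 3 HGC27-FN1 3′-UTR and 3 HGC27-control libraries was analysed, grouped by the sample labels. The authors made strand-specific mRNA libraries and deposited RPKM per gene, 1 table per library. The submitters' processing notes name Trimmomatic 0.36, STAR 2.5.3a, featureCounts, Subread 1.5.1 and GRCh38; the annotation release is not given in the sources used here. Reads were recovered as RPKM × length in whole multiples of 1 read (100% of values above 0 within 0.02 of a read). The 3-read floors cover counting error only, while confidence intervals come from the spread between libraries. Gene spans matched GENCODE release 29 for 10 of 11 laminin rows, all but *LAMA3*.

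Genes with at least 0.1 RPKM in 3 or more libraries were fitted with limma 3.58.1 in R 4.3.3 on log2(RPKM + 0.1) with a variance trend. Shares and ratios were compared by exact permutation tests (scipy 1.17.1). On simulated reads for this comparison, 197 of 200 genes changed 4-fold and 15 unchanged genes among 23222 were called. The changed genes were drawn above a control level that *LAMB3* and *LAMA4* did not reach. Changes as small as those of most laminin chains were not simulated. Alternatives were the pseudocount, filter, trend, median-ratio scaling, voom, replicate block, each library left out and, added after seeing the data, a mean of 10 recovered reads. Members, lists and tests were chosen with earlier results of these data known. Results for some genes are not reported here. Genes named were the laminin chains given, the called genes of each list (at most 4 a direction), *ITGB1*, *ITGA6*, *DAG1*, *NID1*, *COL4A1* and *FN1*, and the 3 genes nearest to *LAMB3* and *LAMA3*. *ITGB4*, *ITGA3*, *ITGA1*, *SDC4*, *COL4A5*, *COL15A1*, *COL18A1*, *COL17A1*, *DST*, *PLEC*, *MMP2*, *KRT8*, *KRT19* and the genes that overlap members were named after their values were seen.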

Additional observations from a re-analysis of the deposited data

How the results depend on the processing

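Against 2 laminin chain genes called higher and 3 called lower, 1 was higher without a filter on low RPKM, 4 with median-ratio scaling, 5 with voom on recovered reads and 4 with a mean of 10 recovered reads. With the replicate block, 1 was higher (*LAMB3*) and 0 were lower, where limma still gave 3 members an unadjusted p under 0.05 in that direction and voom without the block called 3; *LAMA3* had an adjusted p of 0.0529. Leaving out 1 library gave 0 to 1 higher and 1 to 2 lower; without a HGC27-FN1 3′-UTR library, *LAMB3* and *LAMA4* did not reach the filter. Of all genes, 1310 were higher and 1715 lower, against 564 and 598 with the replicate block, 2043 and 3065 with voom, and 501 to 927 and 470 to 1015 with 1 library left out. Partner genes called higher and lower were 5 and 1, against 3 and 0 with the replicate block (2 lower at an unadjusted p under 0.05), 12 and 3 with voom, 3 to 5 and 0 to 1 with 1 library left out, and 2 lower without the variance trend. Over all tested genes, deviations of replicates 1, 2 and 3 from their group means correlated at 0.0024, 0.021 and 0.010 between the groups. Assigned reads rose from replicate 1 to 3 in both groups. Whether replicates of the same number share a batch was not tested. With a mean RPKM of at least 1, *LAMB3* and *LAMA4* were not tested, and 3 members were higher (*LAMC1*, *LAMA5* and *LAMB2*) and 3 lower. Of all 14652 genes then tested, 1212 were higher and 1861 lower. Directions of the 9 genes were kept in every fit that tested them, except *LAMB1*. Its log2 fold change was -0.0084 without HGC27-FN1 3′-UTR replicate 3, 0.022 without HGC27-FN1 3′-UTR replicate 1 and at most 0.040, with median-ratio scaling. With a pseudocount of 1, *LAMA4* relative to *LAMA5* turned to -0.069. For *LAMB3* and *LAMA4*, control levels under 0.1 RPKM limit the precision of any fold. Causes of the other changes in calls were not tested.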
